A study of Mus musculus with 24 samples.

Results

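The Kruppel-like factors (Klf genes) described here are Klf2, Klf3, Klf4, Klf5, Klf6, Klf7, Klf9, Klf10, Klf13 and Klf15. They were taken by name from 18193 genes that had a probe set of their own on the arrays. No rule on signal was used, but earlier results of these data were known when they were chosen. Other Klf genes, such as Klf11, are read as a separate list further on. Every probe set that the platform annotation gave to 1 of these genes alone was kept, which made 34 of 45037 probe sets. The number per gene was 1 for Klf2, Klf10 and Klf15, 2 for Klf4, 3 for Klf5 and Klf13, 4 for Klf7, 5 for Klf6 and 7 for Klf3 and Klf9. A filter on low signal kept 31 of the 34, and all 10 genes had at least 1 tested probe set. The 3 that lay under the filter were 1422264_s_at and 1452723_at of Klf9 and 1456030_at of Klf13.

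RNA from mouse lung was measured on Affymetrix arrays in 4 groups of 3 samples: wild type given PBS, wild type given HDM, IL-13 knockout (KO) given PBS and IL-13 KO given HDM. HDM commonly stands for house dust mite, a source of allergen, and PBS for phosphate-buffered saline; interleukin 13 (IL-13) is a type 2 cytokine. Each sample was hybridised to 2 arrays, set A and set B, so 24 arrays held the 12 samples. Strain, age, sex, dose, route, schedule, and how IL-13 was deleted are not given in the sources used here, nor whether each sample was a separate animal, so p-values measure only the spread between these samples, which may be technical. Lung markers were strong in every sample: the signal of Sftpc, a surfactant protein gene of alveolar type 2 cells, lay between 3789.6 and 7102, that of Scgb1a1, of club cells, between 4255 and 6064, and that of Ager, of alveolar type 1 cells, between 10016 and 22614.

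Kruppel-like factors bind DNA through a trio of zinc fingers at the carboxyl end of the protein, which recognise GC-rich and CACCC sequences, and differ in the part before them, which recruits coactivators or corepressors. Klf2 and Klf4 are known for the quiescent, flow-adapted state of endothelium, Klf5 for lung epithelial maturation, and Klf9 and Klf15 as genes that glucocorticoids induce and that cycle with the circadian clock. Klf3 acts mostly as a repressor through CtBP, and Klf9, Klf10 and Klf13 recruit the Sin3A corepressor. Lung holds many cell types, so that in bulk RNA fewer cells of a type and less RNA per cell cannot be told apart.

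The windows around the start sites of Klf15 and Klf9, the genes that were lower after HDM in both genotypes, and of Klf4, which had the next largest fold change in wild type, were set side by side. Each is the sense strand in GRCm38.p6 from RefSeq, 250 bases before the start site and 20 from it on, with capitals for the motifs CACCC (the CACCC box), GGGCGG (known as the GC box) and CACGTG (an E-box of the type bound by the clock proteins CLOCK and BMAL1), each searched on both strands. CACGTG reads the same on both strands, and matches of different motifs, or of the same motif, may overlap. The Klf15 window is chr6:90462326-90462595 on the plus strand, the Klf9 window chr19:23140976-23141245 on the plus strand and the Klf4 window chr4:55532456-55532725 on the minus strand.
Klf15: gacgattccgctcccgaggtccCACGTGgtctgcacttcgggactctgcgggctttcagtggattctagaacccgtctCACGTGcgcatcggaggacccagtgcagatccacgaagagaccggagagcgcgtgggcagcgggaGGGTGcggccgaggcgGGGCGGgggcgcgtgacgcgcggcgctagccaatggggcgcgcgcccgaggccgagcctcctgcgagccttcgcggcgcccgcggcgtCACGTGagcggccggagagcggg
Klf9: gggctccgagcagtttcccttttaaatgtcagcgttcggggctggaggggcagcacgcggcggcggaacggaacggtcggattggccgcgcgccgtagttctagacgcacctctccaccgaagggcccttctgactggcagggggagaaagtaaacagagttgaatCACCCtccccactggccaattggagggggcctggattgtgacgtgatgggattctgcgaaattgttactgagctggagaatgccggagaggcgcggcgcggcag
Klf4: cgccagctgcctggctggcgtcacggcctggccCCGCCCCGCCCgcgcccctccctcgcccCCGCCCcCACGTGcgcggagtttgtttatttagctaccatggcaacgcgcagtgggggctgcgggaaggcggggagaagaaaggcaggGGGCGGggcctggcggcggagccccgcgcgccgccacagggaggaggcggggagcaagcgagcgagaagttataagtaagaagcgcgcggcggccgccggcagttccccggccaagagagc

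The Klf15 window held 3 E-boxes, which began 228, 172 and 3 bases before the start site, besides 1 CACCC match and 1 GC box. The Klf9 window held 1 CACCC match and neither other motif. The Klf4 window held 4 GC boxes and 1 E-box, 182 bases before the start site. Over 32851 RefSeq windows of the same length, 54.3% held a CACCC match, 34.1% a GC box and 6.57% a CACGTG match, and 0.0761% held 3 or more E-boxes. These shares are not matched for base content. G and C made up 72.6% of the Klf15 window, 61.5% of the Klf9 window and 73.3% of the Klf4 window, against a median of 52.6% over all windows. The table had windows for 8 of the 10 Klf genes, and of these the Klf4, Klf6 and Klf15 windows held CACGTG. These matches describe the letters of the windows and say nothing of binding, which was not measured here.

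After HDM, 6 of the 10 Klf genes fell in wild-type lung and none rose, where each gene is read by the brightest of its tested probe sets (by mean over the samples) and called at an adjusted p under 0.05 (limma, Benjamini-Hochberg over 31496 probe sets). Over all 14477 genes tested, 5.14% were called lower and 5.35% higher. The 6 were Klf3, Klf4, Klf6, Klf7, Klf9 and Klf15. In the IL-13 KO, 2 of the 10 fell, Klf9 and Klf15, and none rose, against 5.3% of all genes called lower and 5.65% higher. The median log2 difference of the 10 genes was -0.62 in wild type and -0.34 in KO, while that over all genes was -0.00 and 0.01. Over all 31 tested Klf probe sets the order turned: the median was -0.46 in wild type, with 25 below 0, and -0.53 in KO, with 28 below 0, against -0.01 and -0.00 over all probe sets. With the mean log2 signal over all tested probe sets of a gene in place of 1 probe set, 5 were called lower in wild type (Klf4, Klf6, Klf9, Klf10 and Klf15) and 5 in KO (Klf3, Klf6, Klf7, Klf9 and Klf15).

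The groups were also compared by overlap of their samples. In wild type all 3 HDM samples lay below all 3 PBS samples for 8 of the 10 genes (the 6 and Klf2 and Klf10), against 14.5% of all genes. In KO this held for 5 (Klf3, Klf6, Klf7, Klf9 and Klf15), against 17.2%, and Klf10 lay above without overlap, as did 17.1% of all genes. Counted over probe sets, 10 of 31 were called lower in wild type and 7 of 31 in KO, against 3.85% and 4.31% of all probe sets. None of the 31 was called higher in either genotype, against 3.85% and 4.24%. The HDM effect did not differ between the genotypes past the threshold for any of the 10 genes (limma interaction, 0.159% of all genes called), and 1 of the 10, Klf10, had an unadjusted p under 0.05.

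**Figure D1:**
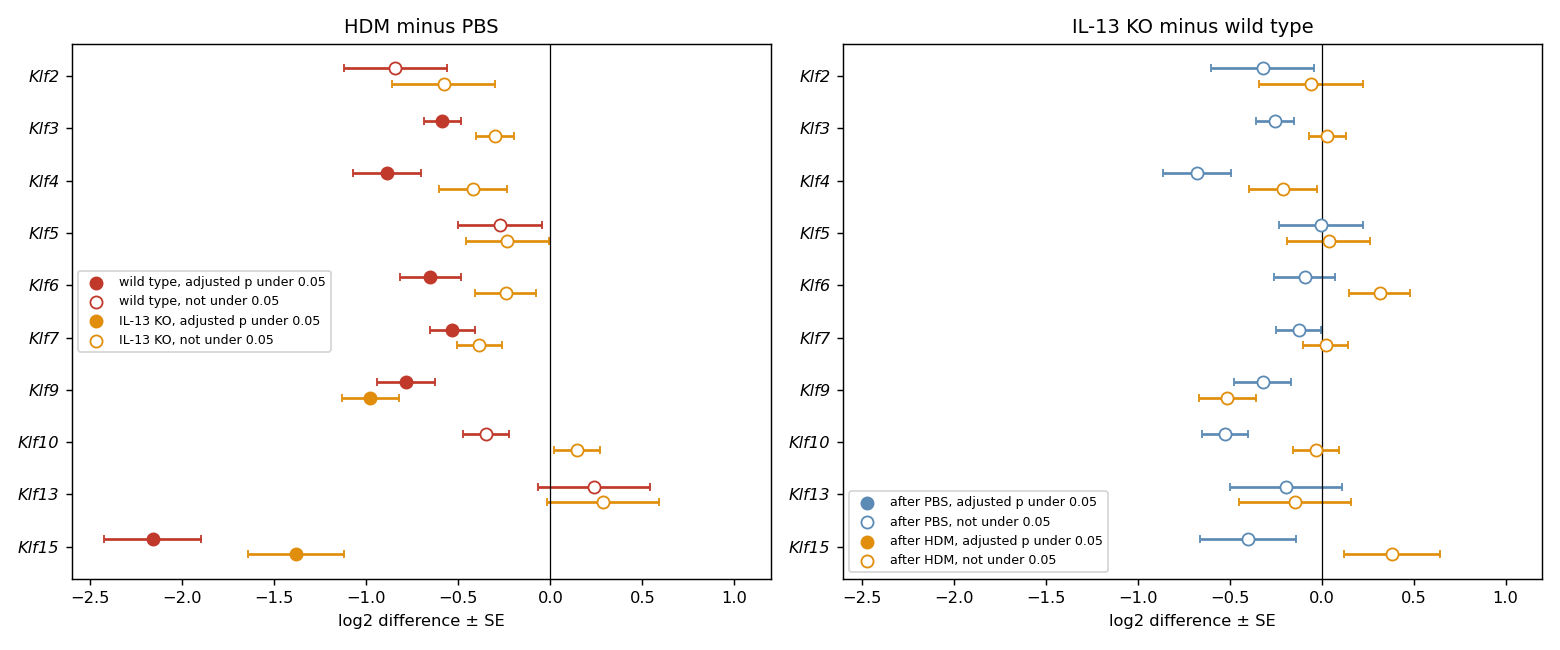
log2 difference with its standard error for the 10 Klf genes, each by the brightest of its tested probe sets: HDM minus PBS in wild type and KO (left) and KO minus wild type after PBS and after HDM (right). Filled points have an adjusted p under 0.05: 6 genes in wild type and 2 in KO on the left, and none on the right.

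Klf15, which drives amino acid and lipid catabolism in liver, muscle and heart and is induced by glucocorticoids, had the largest fold change of the 10 in either genotype. Its signal (1448181_at) was 171, 239 and 173 in the wild-type PBS samples, 28.2, 33.1 and 55.1 in the wild-type HDM samples, 141, 123 and 172 in the KO PBS samples and 43.6, 42.5 and 70.6 in the KO HDM samples. Every HDM sample lay below every PBS sample in both genotypes. The level was therefore ordered wild-type PBS (194 ± 38.8, SD, n = 3), KO PBS (145 ± 24.6), KO HDM (52.2 ± 15.9) and wild-type HDM (38.8 ± 14.3). Samples of the highest and second group overlapped, as did those of the lowest pair. Klf15 was 4.48-fold lower after HDM in wild type, a log2 difference of -2.16 ± 0.26 (SE) with an adjusted p of 0.00035 in limma. In KO it was 2.6-fold lower (-1.38 ± 0.26, adjusted p = 0.0063). The 2 effects differed by 0.78 ± 0.37, adjusted p = 0.88 and unadjusted p = 0.056. Fold changes here are on the log2(signal + pseudocount) scale, with a pseudocount of 7 for set A probe sets and 11 for set B, and understate changes of low signals such as that of Klf15 after HDM.

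Klf9, a glucocorticoid- and thyroid hormone-induced factor of the Sin3A-binding group, fell in both genotypes too. Probe set 1428288_at read 1153, 1126 and 1125 in the wild-type PBS samples, 595, 809.7 and 583 in the wild-type HDM samples, 752, 997 and 995 in the KO PBS samples and 476, 389.8 and 514 in the KO HDM samples. The 3 wild-type PBS samples were the highest of the 12, the 3 KO HDM samples the lowest, and neither HDM group overlapped its PBS group. The log2 difference was -0.79 ± 0.16 in wild type (1.72-fold lower, limma adjusted p = 0.0085) and -0.98 ± 0.16 in KO (1.97-fold lower, adjusted p = 0.0023). The interaction was -0.19 ± 0.22 with an adjusted p of 0.96. The other tested probe sets of Klf9 had a larger difference in KO than in wild type. For 1428289_at the differences were -0.68 ± 0.16 in wild type (adjusted p = 0.023) and -1.29 ± 0.16 in KO (adjusted p = 0.00047).

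For 1456341_a_at they were -0.38 ± 0.15 (adjusted p = 0.17) and -0.85 ± 0.15 (adjusted p = 0.0046), and for 1436952_at -0.41 ± 0.26 (adjusted p = 0.43) and -1.16 ± 0.26 (adjusted p = 0.015). The fifth, 1436763_a_at, was called in neither genotype, with -0.26 ± 0.24 in wild type and -0.73 ± 0.24 in KO. No interaction of these probe sets passed the test (0.0857% of all probe sets did), and the smallest adjusted p among the 5 was 0.78, for 1428289_at. Some calls were lost when 1 sample was left out. That of 1428289_at in wild type was lost without wild-type PBS replicate 1 (adjusted p = 0.0817), wild-type HDM replicate 1 (0.0756) or wild-type HDM replicate 2 (0.0749). That of 1436952_at in KO was lost without KO PBS replicate 2 (0.0534) or 3 (0.0634), or KO HDM replicate 1 (0.0582) or 3 (0.0595).

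**Figure D2:**
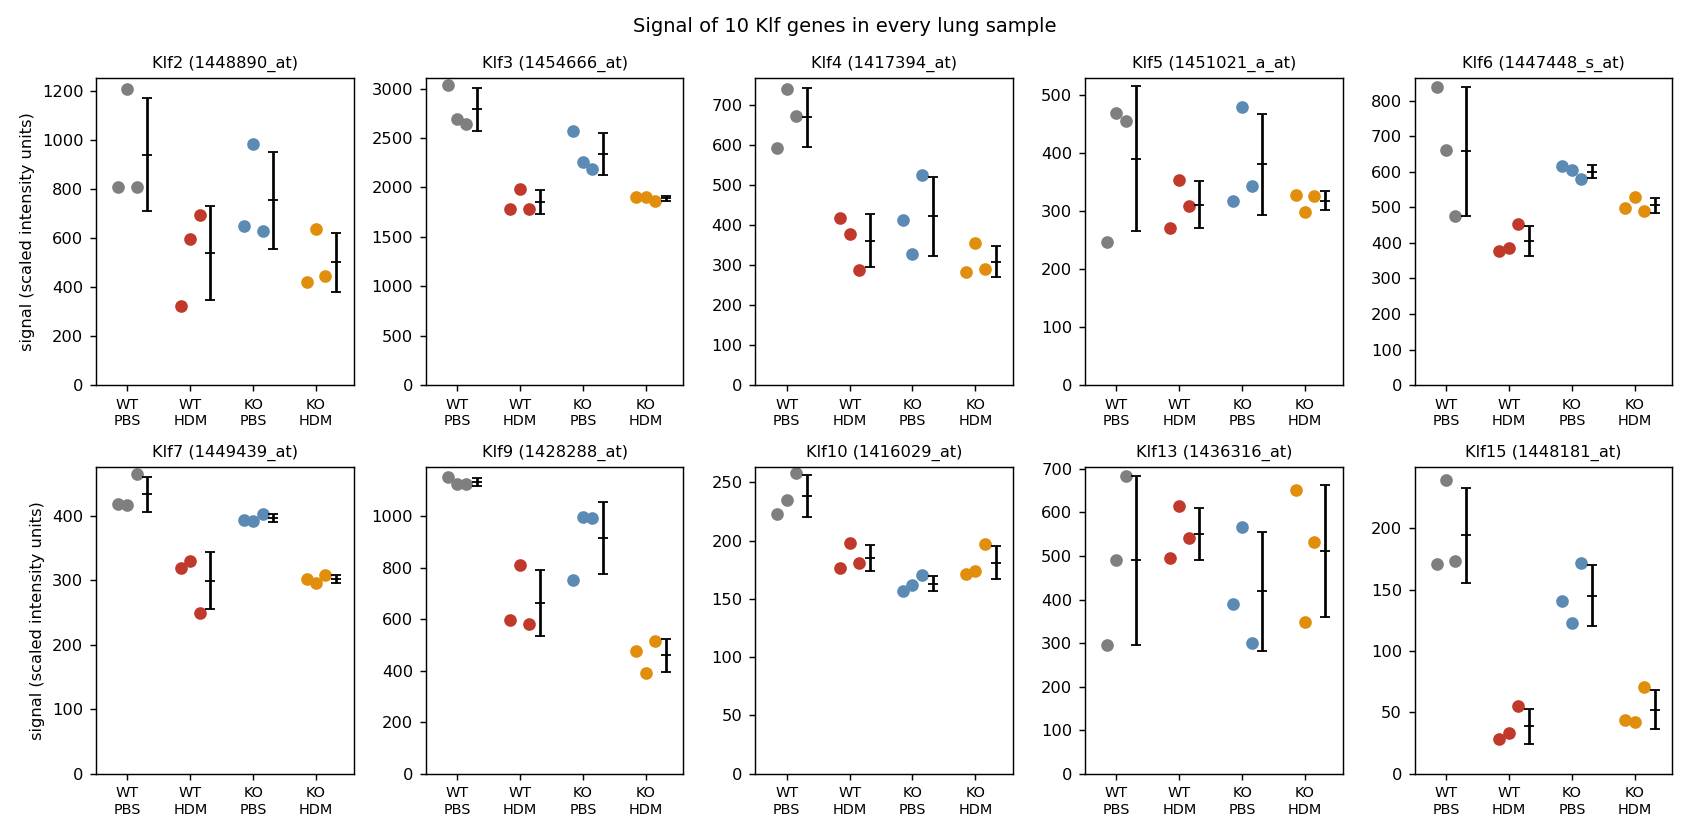
Signal of the 10 Klf genes in scaled intensity units (linear axes from 0), each by the brightest of its tested probe sets, for the 12 lung samples in 4 groups, with points for samples and black bars for the mean and SD of 3. For Klf15 and Klf9 both HDM groups lie wholly below their PBS groups, and for Klf5 and Klf13 the groups overlap in both genotypes.

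Of the endothelial pair, Klf4 was called in wild type and Klf2 in neither genotype. Klf4, which restrains vascular inflammation and, in other cells, supports stem cell identity and epithelial differentiation, read 592, 739 and 672 in the wild-type PBS samples, 416, 378 and 287 in the wild-type HDM samples, 412, 327 and 523 in the KO PBS samples and 282, 354 and 289 in the KO HDM samples on 1417394_at. In wild type the HDM samples all lay below the PBS samples, and in KO they overlapped. It fell 1.85-fold in wild type (-0.89 ± 0.18, limma adjusted p = 0.011), and the difference in KO was -0.42 ± 0.18 (adjusted p = 0.20). Without wild-type HDM replicate 3 the wild-type difference was -0.74 and its adjusted p 0.0524. The other probe set, 1417395_at, gave -0.75 ± 0.20 (adjusted p = 0.037) and -0.53 ± 0.20 (adjusted p = 0.13). The former call was kept in 5 of 12 fits with 1 sample left out. It was lost without wild-type PBS replicate 2 or 3, any wild-type HDM replicate, KO PBS replicate 1 or KO HDM replicate 3, with an adjusted p of up to 0.128.

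Klf2, which laminar shear stress induces in endothelium and which keeps naive T cells recirculating, had a single probe set, 1448890_at. Its signal was 808, 1208 and 809 in the wild-type PBS samples, 325, 595 and 696 in the wild-type HDM samples, 652, 983 and 631 in the KO PBS samples and 419, 637 and 446 in the KO HDM samples. The wild-type groups did not overlap, but their samples varied widely within each group. The difference was -0.84 ± 0.28 in wild type (limma adjusted p = 0.096) and -0.58 ± 0.28 in KO (adjusted p = 0.24), so it was not called in either. With the replicate number as a block, or with the array sets fitted separately, Klf2 was called in wild type.

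Klf6, an injury-induced activator expressed widely, including in endothelium and macrophages, read 838, 660.4 and 475 in the wild-type PBS samples, 378, 385 and 453 in the wild-type HDM samples, 616, 606 and 579.8 in the KO PBS samples and 498, 529 and 491 in the KO HDM samples on 1447448_s_at. The lowest wild-type PBS sample, replicate 3, lay just above the highest wild-type HDM sample, also replicate 3, and the KO groups were apart as well. The difference was -0.65 ± 0.17 in wild type (limma adjusted p = 0.032) and -0.24 ± 0.17 in KO (adjusted p = 0.43). The wild-type call was lost without an intensity trend in the variance (adjusted p = 0.0586), with the array sets fitted separately (0.0633) and in a fit of the wild-type groups alone (0.139). It was also lost without PBS replicate 1 (-0.46, adjusted p = 0.0933), PBS replicate 2 (-0.63, 0.0869), HDM replicate 1 (-0.61, 0.0918) or HDM replicate 2 (-0.62, 0.0947) of that genotype. A pair of other Klf6 probe sets was called lower in wild type: 1418280_at (-0.85 ± 0.20, adjusted p = 0.019) and 1433508_at (-0.51 ± 0.14, adjusted p = 0.048). The call of 1418280_at was lost without wild-type PBS replicate 2 (adjusted p = 0.0767) or wild-type HDM replicate 3 (0.0819). That of 1433508_at was kept in 2 of 12 such fits, those without wild-type PBS replicate 3 or wild-type HDM replicate 2, with an adjusted p of up to 0.178 in the others. The differences of 1427742_a_at (-0.69 ± 0.39) and 1459718_x_at (-0.16 ± 0.25) in wild type did not pass. No Klf6 probe set was called in KO, where differences ran from -0.94 ± 0.39 (1427742_a_at) to -0.24 ± 0.17 (1447448_s_at).

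Klf7, a close relative of Klf6 studied in neurons, fat and blood cells, read 418, 417 and 465 in the wild-type PBS samples, 319, 330.2 and 249 in the wild-type HDM samples, 393, 393 and 403 in the KO PBS samples and 302, 295 and 308 in the KO HDM samples on 1449439_at. Neither genotype's groups overlapped, and the KO samples were close together within each group. The difference was -0.53 ± 0.12 in wild type (limma adjusted p = 0.017) and -0.39 ± 0.12 in KO (adjusted p = 0.069). Without wild-type PBS replicate 3 the former was -0.48 (adjusted p = 0.0598), and without wild-type HDM replicate 3 it was -0.41 (0.0691). In a fit of the wild-type groups alone its adjusted p was 0.108. None of the 3 other Klf7 probe sets was called in either genotype. They gave -0.80 ± 0.25 (1419355_at), -0.42 ± 0.24 (1419356_at) and 0.08 ± 0.37 (1419354_at) in wild type, and -0.62 ± 0.25, -0.56 ± 0.24 and -0.80 ± 0.37 in KO.

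Klf5, which is needed for alveolar maturation before birth and is expressed in epithelium and smooth muscle, was called by none of its 3 probe sets. On 1451021_a_at its signal was 246, 469 and 454 in the wild-type PBS samples, 271, 352 and 307 in the wild-type HDM samples, 317, 479 and 343 in the KO PBS samples and 327, 298 and 325 in the KO HDM samples. The groups overlapped in both genotypes, with 1 low wild-type PBS sample (replicate 1). The differences were -0.27 ± 0.23 in wild type (limma adjusted p = 0.57) and -0.23 ± 0.23 in KO (adjusted p = 0.60). Probe set 1451739_at had the opposite sign in both, 0.18 ± 0.19 and 0.22 ± 0.19, and did not pass either. On 1430255_at the differences were -0.18 ± 0.32 and -0.01 ± 0.32.

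Klf3, the CtBP-dependent repressor, fell in wild type on 1454666_at, where its signal was 3039, 2692 and 2638 in the wild-type PBS samples, 1781, 1989.5 and 1786 in the wild-type HDM samples, 2575, 2258 and 2183 in the KO PBS samples and 1903, 1908 and 1862 in the KO HDM samples. All 6 HDM samples lay below all 6 PBS samples. The wild-type difference was -0.59 ± 0.10 (1.5-fold lower, limma adjusted p = 0.0036) and kept its call in 12 of 12 fits with 1 sample left out. In KO it was -0.30 ± 0.10 (adjusted p = 0.091). None of the 6 other Klf3 probe sets was called in wild type. A pair of them was called in KO: 1421604_a_at (-1.32 ± 0.31, adjusted p = 0.022) and 1458487_at (-1.08 ± 0.28, adjusted p = 0.03).

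Probe set 1458487_at differed in pattern from the probe set that stands for Klf3. Its signal was low, 55.2, 71.6 and 38.1 in the wild-type PBS samples, 64.8, 67.6 and 73 in the wild-type HDM samples, 71.7, 35.1 and 44.8 in the KO PBS samples and 13.5, 26.4 and 13.4 in the KO HDM samples. The 3 KO HDM samples were the lowest of the 12, while the wild-type HDM samples overlapped the PBS samples, with a difference of 0.30 ± 0.28 in wild type. After HDM it was lower in KO than in wild type, with a log2 difference of -1.49 ± 0.28 (limma adjusted p = 0.034), against 0.457% of all probe sets called in that comparison. That call was lost with the ratio of actin signals, a measure of RNA integrity, as a covariate (-1.53, adjusted p = 0.126) and with the array sets fitted separately (adjusted p = 0.23). Its interaction was -1.38 ± 0.39 (adjusted p = 0.62). The KO call was lost without KO PBS replicate 1 (adjusted p = 0.119) or 3 (0.0703) or KO HDM replicate 1 (0.0998) or 3 (0.109). The KO-minus-wild-type call was kept in 5 of 12 such fits and lost without wild-type PBS replicate 1, any wild-type HDM replicate, KO PBS replicate 3 or KO HDM replicate 1 or 3 (adjusted p up to 0.169). The KO call of 1421604_a_at was lost without KO PBS replicate 1 (0.055) or 3 (0.0805) or KO HDM replicate 1 (0.0543) or 3 (0.0854).

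Klf10, a TGF-beta-induced repressor, had 1 probe set (1416029_at) and was called in neither genotype. Its signal was 223, 234 and 258 in the wild-type PBS samples, 177, 198 and 181 in the wild-type HDM samples, 157, 162 and 170.2 in the KO PBS samples and 172, 174 and 197 in the KO HDM samples. In wild type every HDM sample was below every PBS sample, and in KO every HDM sample was above every PBS sample, the nearest values being 170.2 and 171.6. The difference was -0.35 ± 0.12 in wild type (limma adjusted p = 0.12) and 0.14 ± 0.12 in KO (adjusted p = 0.55). The interaction was 0.49 ± 0.18, with an unadjusted p of 0.016 and an adjusted p of 0.78. Klf13, a Sin3A-binding factor that promotes Ccl5 expression in T cells, read 296, 491 and 683 in the wild-type PBS samples, 495, 614 and 541 in the wild-type HDM samples, 390.2, 567 and 299 in the KO PBS samples and 651, 349 and 532 in the KO HDM samples on 1436316_at. Its samples overlapped in every pair of groups, and the differences were 0.24 ± 0.31 in wild type (adjusted p = 0.74) and 0.29 ± 0.31 in KO (adjusted p = 0.64). Its other tested probe set, 1432543_a_at, gave 0.38 ± 0.40 and -0.65 ± 0.40, neither called.

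**Figure D3:**
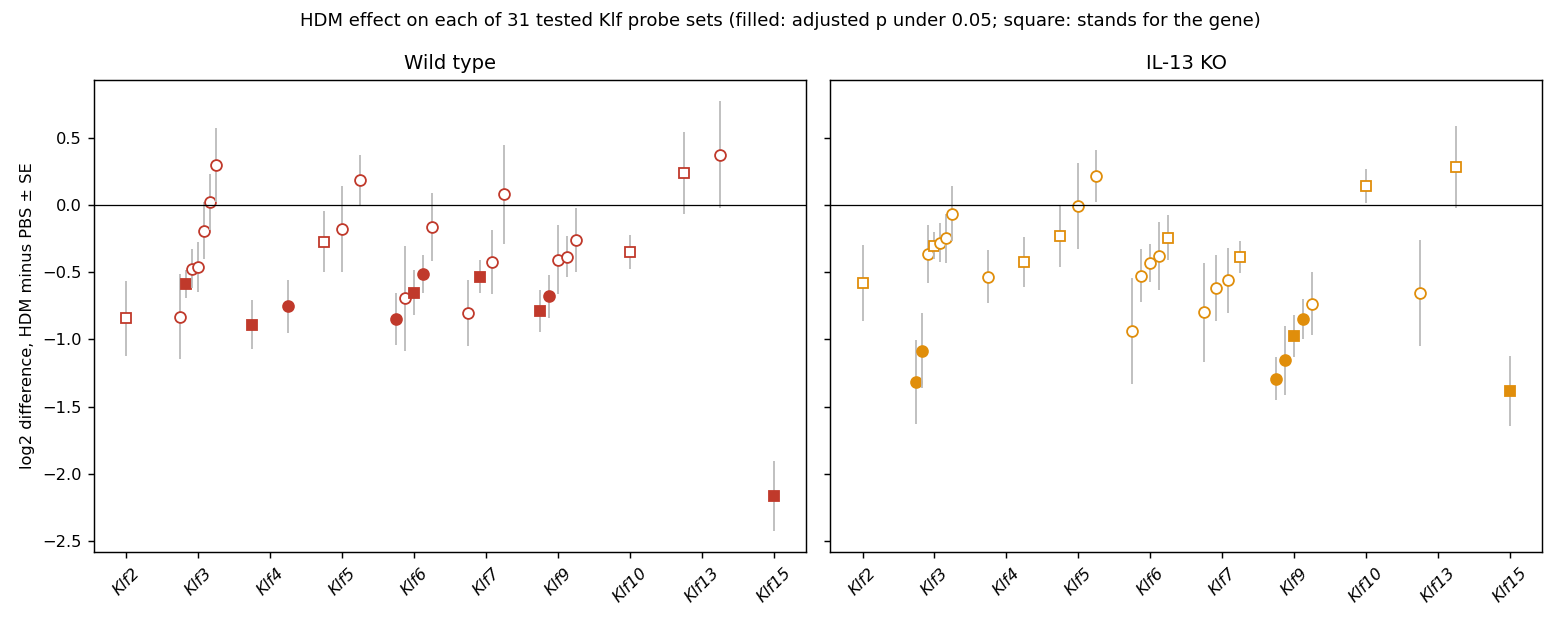
log2 difference between HDM and PBS samples with its standard error for each of the 31 tested Klf probe sets, in wild type (left) and KO (right), ordered by size within a gene. Filled symbols have an adjusted p under 0.05 (10 in wild type, 7 in KO) and all lie below 0, and squares mark the probe set that stands for the gene.

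In PBS lung, none of the 10 genes differed between KO and wild type past the threshold (limma, 0.0207% of all genes called). Each read by its brightest probe set, all 10 had a difference below 0, with a median of -0.29 against 0.00 over all genes. Over all 31 tested Klf probe sets 24 were below 0, with a median of -0.18 against -0.01 over all probe sets. The 3 genes with an unadjusted p under 0.05 were Klf3 (-0.25 ± 0.10, adjusted p = 0.67), Klf4 (-0.68 ± 0.18, adjusted p = 0.49) and Klf10 (-0.53 ± 0.12, adjusted p = 0.38). The KO PBS samples lay below the wild-type PBS samples without overlap for Klf3, Klf4, Klf7, Klf9 and Klf10, 5 of 10, against 5.86% of all genes. These wild-type PBS samples are also the baseline of the wild-type HDM effect, so the 2 comparisons share them.

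After HDM, none of the 10 genes differed between KO and wild type past the threshold (limma, 0.67% of all genes called), and 1, Klf9, had an unadjusted p under 0.05. The Klf9 difference was -0.51 ± 0.16 on the log2 scale (unadjusted p = 0.0063, adjusted p = 0.30), and each KO HDM sample lay below each wild-type HDM sample, as held for 7.34% of all genes. With the mean log2 signal over its probe sets in place of 1 probe set, Klf9 was called lower in KO HDM than in wild-type HDM lung. Klf6 lay above without overlap (0.32 ± 0.17, adjusted p = 0.66), as did 9.62% of all genes. The median over the 10 genes, each by its brightest probe set, was -0.01, against 0.02 over all genes. Over all 31 tested Klf probe sets it was -0.21, with 24 below 0, against 0.00 over all probe sets. The 5' signal of actin over its 3' signal is a measure of RNA integrity. On set A this ratio was lower in the KO HDM samples (0.464 to 0.656) than in the wild-type HDM and KO PBS samples, without overlap. It was 0.695 to 0.832 in the wild-type HDM samples and 0.748 to 0.854 in the KO PBS samples. On set B the KO HDM range, 0.428 to 0.612, lay below that of the wild-type HDM samples, 0.643 to 0.851. There it overlapped that of the KO PBS samples, 0.610 to 0.897. The same ratio for Gapdh did not separate these groups. Its KO HDM range on set A, 1.039 to 1.157, overlapped those of the wild-type HDM and KO PBS samples, and the ranges overlapped on set B too. A lower RNA integrity of the KO HDM samples was therefore seen in actin only, and without overlap with the KO PBS samples on set A only. With the actin ratio as a covariate none of the 10 genes was called between KO and wild type after HDM. Klf9 and Klf15 were still called lower after HDM in KO. The KO calls of Klf3 1421604_a_at (-0.87, adjusted p = 0.116) and 1458487_at (-1.12, adjusted p = 0.0812) were lost.

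The actin ratio and muscle signal differed between samples. Replicate 2 of the wild-type PBS group had the lowest actin ratio, 0.409 on set A, against 0.898 in the highest sample. The Gapdh ratio of that replicate was 1.041 on set A, the lowest of its group, and 1.02 on set B, the highest of its group. In that sample 3 of the 31 tested Klf probe sets lay under 0.5 times the lower of the other wild-type PBS samples, a limit chosen after seeing the values, as did 3.64% of all tested probe sets. Klf6 1427742_a_at read 177, 40 and 105 in the 3 wild-type PBS samples, Klf7 1419354_at 242, 74.3 and 316, and Klf13 1432543_a_at 259.7, 72.1 and 296, the second value in each being replicate 2. Other Klf probe sets were highest of the group in replicate 2, such as Klf2 1448890_at (1208 against 808 and 809) and Klf4 1417394_at (739 against 592 and 672). Tnnc2, a skeletal muscle gene, read 413 in that sample, 198 and 988 in replicates 1 and 2 of the wild-type HDM group, and up to 6.97 in the other samples. Without these 3 samples the wild-type HDM group holds 1 sample, replicate 3, so only differences are given. They were -0.66 for Klf3, -1.12 for Klf4, -0.81 for Klf7 and -0.96 for Klf9, larger than with all samples. Those of Klf6 (-0.47) and Klf15 (-1.53) were smaller. Without the samples of the 2 lowest actin ratios, wild-type PBS replicate 2 and KO HDM replicate 1, 3 Klf genes were called lower in wild type (Klf3, Klf9 and Klf15). With the actin ratio as a covariate there were 6. Over all probe sets, 2426 were called in wild type with all samples and 1407 without the 2.

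**Figure D4:**
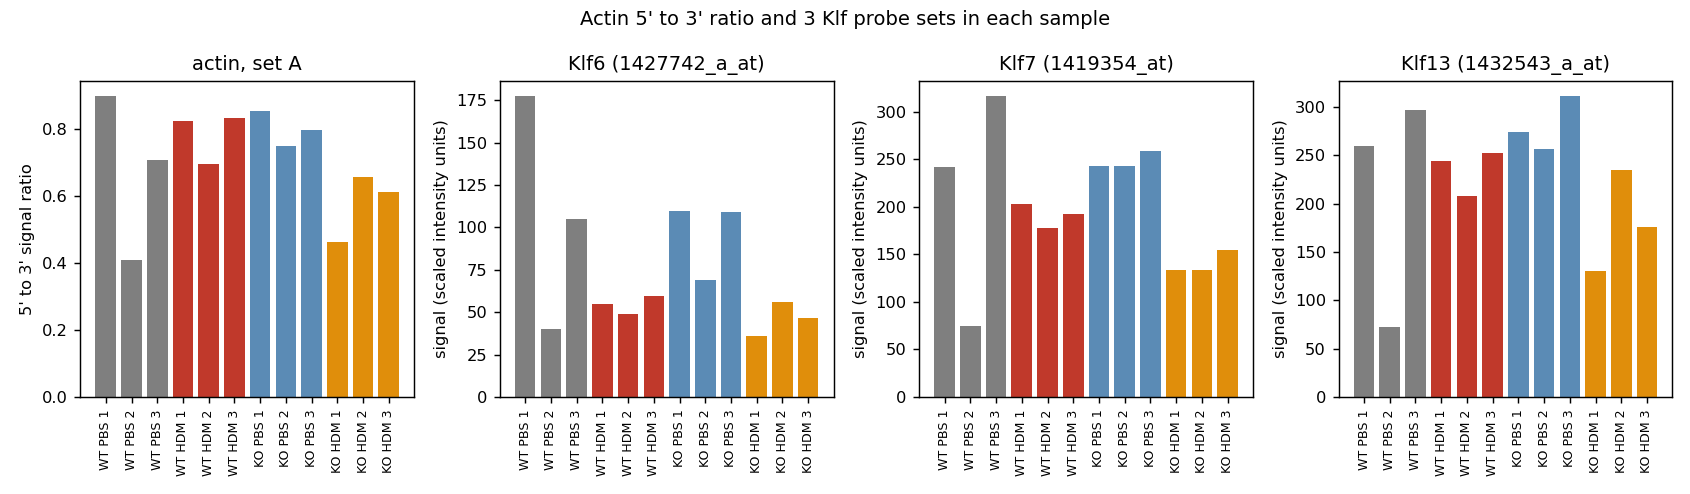
Actin 5' signal over 3' signal on set A (left) and signal of a Klf6, a Klf7 and a Klf13 probe set (scaled intensity units) in each of the 12 samples, coloured by group, with bars from 0. Wild-type PBS replicate 2 has the lowest actin ratio (0.409). The 3 probe sets were picked for their low signal in that sample, so they do not tie signal to the ratio.

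The rest of the family and the lists below were read in the same way. Beside their counts stand the shares over all genes tested: 5.14% called lower and 5.35% higher in wild type, 5.3% and 5.65% in KO. Of the other Kruppel-like and Sp factors, 10 were tested, and 2 fell in wild type, Sp3 (-0.80 ± 0.20, adjusted p = 0.031) and Klf11 (-0.72 ± 0.19, adjusted p = 0.037). In KO 1 of 10 fell, Klf11 (-0.69 ± 0.19, adjusted p = 0.041). The list's median was -0.11 in wild type and 0.05 in KO. Among 10 genes of corepressors, coactivators and ubiquitin ligases of Klf proteins, 2 fell in wild type, Wwp1, a ubiquitin ligase (-0.74 ± 0.18, adjusted p = 0.024), and Kat2b, a histone acetyltransferase (-0.48 ± 0.12, adjusted p = 0.028), and none was called in KO, where the smallest adjusted p was that of Kat2b (-0.39 ± 0.12, adjusted p = 0.063). That list's median was -0.12 in wild type and -0.01 in KO.

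Known vascular targets of Klf2 and Klf4 were called lower in 5 of 9 tested cases in each genotype, and none was called higher. Tek, the angiopoietin receptor (-1.12 ± 0.10, adjusted p = 4.3e-05), Cav1, which encodes caveolin 1 (-0.66 ± 0.10, adjusted p = 0.0019), Thbd, the anticoagulant receptor thrombomodulin (-0.65 ± 0.12, adjusted p = 0.006), and S1pr1, a sphingosine 1-phosphate receptor (-0.74 ± 0.18, adjusted p = 0.027), were among those that fell in wild type. In KO, Tek gave -1.02 ± 0.10, adjusted p = 0.00011, Thbd -0.78 ± 0.12, adjusted p = 0.002, Cav1 -0.64 ± 0.10, adjusted p = 0.0026 and Calcrl, the receptor of adrenomedullin, -1.16 ± 0.23, adjusted p = 0.0095. The list's median was -0.65 in wild type and -0.64 in KO. The list was not split into genes that Klf2 and Klf4 induce and genes that they repress, so its count and median do not measure their activity. These targets are endothelial genes themselves, and general endothelial markers moved with them. Tek and Calcrl are in both lists, so the lists are not independent. Of 24 markers tested, 19 fell and 1 rose in wild type, and 17 fell in KO, with medians of -0.67 and -0.61. Their summed signal was 28828 to 30816 in wild-type PBS samples, 18868 to 19806 in wild-type HDM samples, 26622 to 29508 in KO PBS samples and 18431 to 20395 in KO HDM samples. Markers of alveolar type 1 cells were called lower in 9 of 15 in each genotype, with summed signals of 39601 to 46328 in wild-type PBS samples, 25715 to 30599.7 in wild-type HDM samples, 46805 to 50887 in KO PBS samples and 32174 to 34603 in KO HDM samples. Macrophage markers were called higher in 11 of 12 in wild type and 9 of 12 in KO, with summed signals of 2660.2 to 3169.8 in wild-type PBS samples, 11511 to 12896 in wild-type HDM samples, 2898 to 3316 in KO PBS samples and 9496 to 10256 in KO HDM samples. No marker was at 0 in any sample, and the part of these cell types in the Klf differences was not tested.

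Lymphocyte trafficking targets of Klf2 went both ways in wild type: of 5 tested, Il7r, the interleukin 7 receptor, rose (1.55 ± 0.20, adjusted p = 0.00046) and S1pr1 fell. In KO Il7r rose (1.12 ± 0.20, adjusted p = 0.0039) and none fell. The median was -0.23 in wild type and 0.03 in KO. Lymphocyte markers rose as well: 5 of 7 B cell markers in wild type and 3 of 7 in KO (medians 1.32 and 0.80), and 2 of 8 T cell markers in wild type and 5 of 8 in KO (medians 0.47 and 0.77), with none called lower. Summed B cell signal was 819 to 1028 in wild-type PBS samples, 1853 to 3002 in wild-type HDM samples, 1197 to 1384 in KO PBS samples and 2002 to 2435 in KO HDM samples. Summed T cell signal was 735 to 810.0 in wild-type PBS samples, 896 to 1357 in wild-type HDM samples, 868 to 965 in KO PBS samples and 1385 to 1599.6 in KO HDM samples. Their part in the Il7r difference was not tested.

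Of the metabolic targets of Klf15, none of 12 tested was called in wild type, where the smallest adjusted p was that of Prodh, proline dehydrogenase (-0.61 ± 0.17, adjusted p = 0.051), followed by Gpt, an alanine aminotransferase (-0.43 ± 0.18, adjusted p = 0.20). In KO, Acacb, an acetyl-CoA carboxylase of fatty acid oxidation control, fell (-2.13 ± 0.44, adjusted p = 0.01). The median was -0.00 in wild type and -0.12 in KO. Heart muscle and fat also express Klf15 and Acacb. Of 8 cardiac muscle markers, 3 fell in wild type and 7 in KO (medians -0.64 and -1.02), with summed signals of 2851 to 3278 in wild-type PBS samples, 2008 to 2310.2 in wild-type HDM samples, 2575 to 4695 in KO PBS samples and 1403 to 1861 in KO HDM samples. Of 4 adipose markers tested none was called (medians 0.03 and -1.01), with summed signals of 1016 to 1805 in wild-type PBS samples, 820.2 to 2105 in wild-type HDM samples, 989 to 1441 in KO PBS samples and 737 to 1041 in KO HDM samples. The part of these tissues in the Klf15 and Acacb differences was not tested.

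Genes that glucocorticoids induce, as they do Klf9 and Klf15, were called in both directions. Of 16 tested, 4 fell and 1 rose in wild type. Errfi1, an inhibitor of the EGF receptor (-1.03 ± 0.17, adjusted p = 0.0027), Dusp1, a MAP kinase phosphatase (-1.17 ± 0.22, adjusted p = 0.0061), and Fam107a (-0.65 ± 0.16, adjusted p = 0.025) fell, and Mt2, a metallothionein (0.75 ± 0.13, adjusted p = 0.0042), rose. In KO 4 fell and 3 rose, among them Mt2 (1.38 ± 0.13, adjusted p = 6.9e-05), Mt1 (0.91 ± 0.18, adjusted p = 0.0079), Glul, glutamine synthetase (-0.76 ± 0.16, adjusted p = 0.01), and Dusp1 (-0.95 ± 0.22, adjusted p = 0.019). The median was -0.38 in wild type and -0.21 in KO.

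Of 17 circadian clock genes tested, 4 fell and 2 rose in wild type. Nr1d1 (-1.61 ± 0.24, adjusted p = 0.0014) and Nr1d2 (-1.32 ± 0.26, adjusted p = 0.009), the REV-ERB repressors, and Tef, a PAR bZIP output factor (-0.73 ± 0.14, adjusted p = 0.0083), fell, and Bhlhe40, a repressor that binds E-boxes (1.21 ± 0.21, adjusted p = 0.0038), rose. In KO 2 fell, Nr1d1 (-1.01 ± 0.24, adjusted p = 0.021) and Nr1d2 (-1.01 ± 0.26, adjusted p = 0.034), and none rose. The median was -0.59 in wild type and -0.30 in KO. The sources used here do not give the hour of sampling.

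The immediate early genes, a class that Klf2, Klf4, Klf6 and Klf10 can join after stimulation or tissue handling, were split. In wild type 3 of 20 rose and 4 fell, among them Egr2 (1.39 ± 0.21, adjusted p = 0.0017), Atf3 (1.83 ± 0.38, adjusted p = 0.01), Dusp1 and Jun (-0.58 ± 0.14, adjusted p = 0.024). In KO 2 rose and 4 fell, among them Atf3 (1.74 ± 0.38, adjusted p = 0.013), Jun (-1.24 ± 0.14, adjusted p = 0.00021), Ier3 (-0.86 ± 0.15, adjusted p = 0.0037) and Ccn2 (-0.84 ± 0.16, adjusted p = 0.0078). The median was -0.12 and 0.08. Of 11 TGF-beta response genes, the class of Klf10, 3 fell and 2 rose in wild type, among them Id3 (-0.71 ± 0.11, adjusted p = 0.0018), Smad6 (-1.16 ± 0.21, adjusted p = 0.0049), Id1 (-0.67 ± 0.12, adjusted p = 0.0049) and Pmepa1 (0.86 ± 0.18, adjusted p = 0.013). In KO 2 fell, Id3 (-0.59 ± 0.11, adjusted p = 0.0057) and Smad6 (-1.09 ± 0.21, adjusted p = 0.0069), and Tgfbi rose (0.87 ± 0.17, adjusted p = 0.0072). The median was -0.23 and -0.07.

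**Figure D5:**
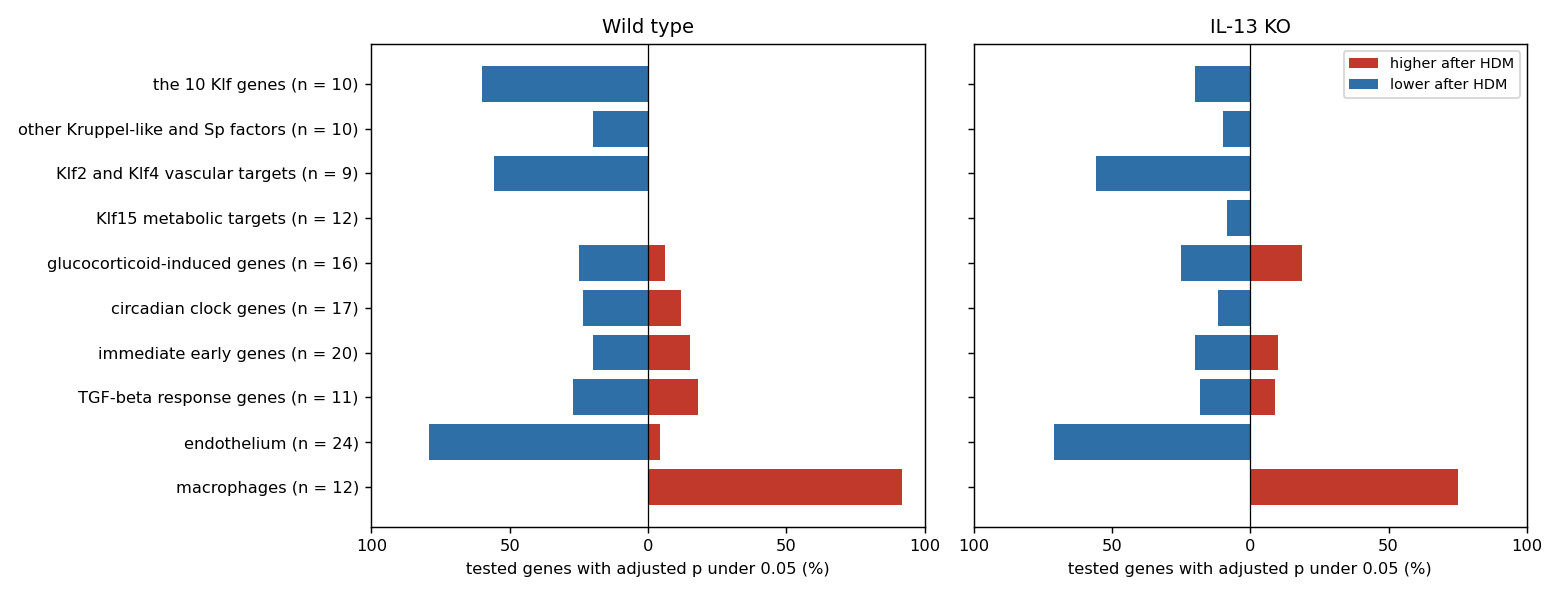
Percentage of the tested genes of each list shown that had an adjusted p under 0.05 for HDM against PBS, in wild type (left) and KO (right), lower to the left of 0 and higher to the right, with the number tested beside each name. Some lists of the text are not drawn. Of the 10 Klf genes 6 fell in wild type and 2 in KO, and of the 24 endothelial markers 19 and 17. Over all genes tested, 5.14% fell in wild type and 5.3% in KO.

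For each Klf gene called in a comparison, the 3 genes most like it over the 12 samples were taken by Pearson's r of log2 signal among 14476 other genes. The samples share the 4 groups, so a high r also follows from the HDM difference. Klf15 was most like Cavin2, a caveola protein gene (r = 0.97), Acer2, an alkaline ceramidase gene (0.97), and Notch1 (0.96), which all fell in both genotypes. Nearest to Klf7 were Gata2, a transcription factor of blood and endothelium (0.98), Bmp6 (0.96) and Fibin (0.95), which also fell in both. Nearest to Klf9 were Tle1, a corepressor (0.96), Rabgap1l (0.96) and Ogn, a matrix proteoglycan (0.95), of which Ogn fell in both. For Klf3 they were Fgfbp1 (0.97), Scarf1 (0.96) and Stard9 (0.95), for Klf4 Pls1 (0.94), Cadps2 (0.93) and Eea1 (0.92), and for Klf6 Nkain4 (0.92), Nr3c1, the glucocorticoid receptor (0.90), and Spin1 (0.90). Among pairs of Klf genes that included 1 of these 6, the highest r was that of Klf3 and Klf7 (0.87), where Klf7 ranked 148 among the genes most like Klf3.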

How the data were processed

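The authors deposited an intensity on a linear scale for each probe set of each array. How the authors computed it is not given in the sources used here, but all arrays had a trimmed mean of 150 (2% off each end), which shows a common scaling by the authors that was kept. Group and replicate number came from the sample titles. Gene names came from the platform annotation, and 100 probe sets shared by both sets were read from set A.

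Signals were converted to log2(signal + pseudocount), the pseudocount being the 10th percentile of each set (7 and 11), and those whose mean lay below their set's 30th percentile (32 on set A, 39.2 on set B) were left out. limma 3.58.1 in R 4.3.3 fitted 1 model of 4 groups with 8 residual degrees of freedom, eBayes with a trend on intensity, and p-values adjusted by Benjamini-Hochberg across 31496 probe sets in each of 5 comparisons. The script was tested on simulated data. A gene stands by the brightest of its tested probe sets, and the number of arrays limits the precision.

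The Klf genes, lists and tests were chosen with earlier results of these data known. All 10 Klf genes were named. Of each other list, up to 4 called genes with the smallest p were named, or up to 2 where none was called, as were the 3 genes most like each called Klf gene. The alternatives covered the pseudocount, filter, normalization, variance model, groups in the fit, array sets, probe set summary, samples left out and a replicate block. A correction for the actin ratio was added after seeing the data. Same-numbered samples did not deviate together: 1 of 18 pairs had a correlation of deviations over 0.1 (range -0.089 to 0.17), so no pairing was assumed.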

Additional observations from a re-analysis of the deposited data

Results flagged for a closer look

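The samples of Klf10 (1416029_at) were separated in opposite directions in the 2 genotypes: the 3 wild-type HDM samples lay below the 3 wild-type PBS samples, and the 3 KO HDM samples lay above the 3 KO PBS samples, by a gap from 170.2 to 171.6. Neither effect passed the test (wild type -0.35, adjusted p = 0.12; KO 0.14, adjusted p = 0.55). The HDM effect in KO minus that in wild type was 0.49 on the log2 scale, with an unadjusted p of 0.016 and an adjusted p of 0.78 in limma, so the difference did not pass the test. The wild-type PBS samples were the highest group (238 ± 17.9), and the other groups had means from 163 to 185. The cause was not tested.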

How the results depend on the processing

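The count of Klf genes called lower after HDM in wild type (6) was 3 without the 2 samples with the lowest actin ratio. That alternative was added after seeing the data and holds fewer samples. Without the 3 samples with skeletal muscle signal the wild-type HDM group holds 1 sample, so no count is given. With the mean over the probe sets of a gene, the count in KO (2) was 5 and that for KO minus wild type after HDM (0) was 1, Klf9. Leaving out 1 sample at a time gave counts of 4 to 6 in wild type, 2 to 3 in KO and 0 to 0 for the interaction and both comparisons of KO with wild type. With the replicate block the counts were 7 in wild type, where Klf2 was added, 2 in KO and 0 in the other comparisons. That block also ended the calls of Klf6 1433508_at in wild type (adjusted p = 0.0551) and Klf3 1458487_at in KO minus wild type after HDM (adjusted p = 0.0716). Of 12 samples, 4 correlated best with their own replicate number. Over 436 repeats of 18 called results for single probe sets, 344 kept direction and call, 92 kept direction only and 0 reversed. Many settings, such as the filter or the loss of a sample outside the 2 groups compared, cannot change a difference, only its adjusted p. The alternatives counted here include the fit without the 3 samples with skeletal muscle signal. Its calls in wild type rest on 1 HDM sample and carry little weight. Klf15 in wild type (-2.40 to -1.53) and in KO (-1.59 to -1.08), and Klf9 1428288_at in KO (-1.11 to -0.86), were called in 25 of 25 alternatives. Klf9 1428288_at in wild type was called in 24 of 25, all but the fit without the 3 samples with skeletal muscle signal, where its difference was -0.96. A fit of only the 2 groups compared cannot give the interaction, and in wild type it called 4 genes, losing Klf6 1447448_s_at (adjusted p = 0.139) and Klf7 1449439_at (0.108). Detection calls were not used here, so how far low probe sets such as Klf3 1458487_at lay above background was not assessed.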
